A study of Homo sapiens with 6 samples.

Results

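CELF1-bound RNA was mapped in bins of 20 bases, and 296 of the 30842 bins common to all IP samples lay in introns (0.960%, Wilson 95% interval 0.857 to 1.07). Neighbouring bins of 1 gene are not independent, so this interval covers counting error only and is too narrow. A common bin held more than 30 IP reads in each of the 3 IP samples. It counted as intronic when its centre fell in an intron of a protein-coding transcript and in no exon of any gene on that strand (GRCh37, GENCODE 44). The IP reads themselves therefore chose the members, so IP levels and IP over input are given as a description, with no test.

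The series holds RIP-Seq of 2 human melanoma cell lines, SK-Mel-103 (1 IP sample, labelled R1) and UACC-62 (2 IP samples, replicates 1 and 3), each with its own input. Both lines were grown untreated in serum-containing medium, and CELF1 was pulled down from fixed, sonicated lysates with an antibody against CUGBP1, the older name of CELF1. No pulldown with another antibody or from CELF1-depleted cells was analysed here, and each line is 1 established culture, so that the spread over the 2 UACC-62 samples is that of 1 line. Values below are given in the order SK-Mel-103, UACC-62 replicate 1, UACC-62 replicate 3. The lists of the 3 IP samples held 780750 to 862731 bins with 10958459 to 14436573 IP reads and 8453517 to 10161917 input reads. Of 8 melanocyte markers, MITF, MLANA, TYR, DCT and S100B were listed chiefly in UACC-62, SOX10 in all 3 samples and PMEL and TYRP1 in none. In such bulk lysates fewer cells and less RNA per cell cannot be told apart.

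CELF1 is an RNA-binding protein with RNA recognition motifs and a known preference for GU-rich sequence. It acts in the nucleus on the choice of alternative exons and in the cytoplasm on mRNA decay and translation, mostly through 3′ UTRs. Introns are normally removed and degraded soon after transcription, so intronic sequence reaches a pulldown through pre-mRNA, through transcripts that keep an intron or end within it, or through RNA that the intron itself hosts.

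The bins below carry the largest values and are shown on the transcript strand, 5′ to 3′, with each TGT in capitals, since repeats of this triplet make up the GU-rich elements known for CELF1. The first group holds the hosts of the bins with the highest IP over input in their lowest sample or with the most IP reads in their lowest sample.
MYO1D, chr17:31149541-31149560, minus strand: cggcagtgaacggggaggag
COMMD3-BMI1, chr10:22609481-22609500, plus strand: gtcccggcccggcgcggagc
MIB2, chr1:1565121-1565140, plus strand: tcagctggtggcccgcgggt
PTPN6, chr12:7070141-7070160, plus strand: cctgcccTGTGTccttggct
DLG2, chr11:85195061-85195080, minus strand: ccttaaatggagtttaccac
WDR4, chr21:44264441-44264460, minus strand: tctttatccctggttttctg
SEC14L1, chr17:75158361-75158380, plus strand: gatggtagcttcgccccatt
GLB1, chr3:33129101-33129120, minus strand: gTGTGTGTGTGTGTGTGTGT
UNC45B, chr17:33478301-33478320, plus strand: ccacacgagcggcgccgggg
HES6, chr2:239148721-239148740, minus strand: caatcggcgcattgagatgc
The second group gives the bin with the highest IP over input in its lowest sample for the 4 genes with most members, and was chosen after their values were seen.
RBM15, chr1:110886941-110886960, plus strand: cttttggagagtgaagtcca
HELLS, chr10:96366061-96366080, plus strand: gagggtttTGTcttttgaat
H2AZ2, chr7:44870241-44870260, minus strand: taaaaaatTGTcagatcTGT
SARS1, chr1:109758061-109758080, plus strand: agataggtggtgagttcttc
Of these 14 bins, PTPN6, GLB1, HELLS and H2AZ2 held a TGT, and in GLB1 it formed a GT repeat. The triplet was as frequent elsewhere, in 106 of the 296 intronic bins (35.8%) and 11714 of the 30842 common bins. The capitals are therefore no sign that TGT was enriched in the printed bins. With 20 bases on each side this GLB1 bin gave 94939 genome alignments of at least 38 bases with at most 2 mismatches, overlapping ones among them, so its reads cannot be assigned to GLB1 alone. The MYO1D, DLG2, SEC14L1 and UNC45B bins gave 2, 3, 5 and 3 such alignments and also matched a ribosomal DNA scaffold described below. Their reads cannot be assigned to these genes alone either.

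The intronic bins were concentrated in few genes. They fell in 93 host genes, of which 68 held 1 bin, 10 held 2 bins, 2 held 3 bins and 13 held 4 or more. RBM15 (61 bins), HELLS (39) and H2AZ2 (36) together held 136 bins, or 45.9% of all. Next came SARS1 with 13 bins, GLB1 with 12, WDR4 with 9, MYO1D with 6, HFM1 and MTAP with 5 each, and UNC45B, LARP4, LPIN2 and DCBLD2 with 4 each. Bins of 1 gene share their transcript and are not independent. The read minimum can be read against the lists as a whole. Of the 9466 intronic bins listed in all 3 samples, 3.13% held more than 30 IP reads in each, against 10.9% of all 282942 bins listed in all 3 samples. Members just inside the minimum can be set beside bins just outside it. The 13 members with 31 reads in their lowest sample had a median log2 IP over input of 2.04, 3.26 and 2.93, and the 17 intronic bins with 30 reads had 2.13, 2.86 and 2.43. Leaving out SK-Mel-103, 506 intronic bins were common to both UACC-62 samples.

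IP over input is given per bin as the log2 of IP reads plus 1 over input reads plus 1, each divided by its column's total, so that 0 means the same share of both. The 296 intronic bins had a median of 2.35 for SK-Mel-103 and 3.11 and 2.87 in the other samples (UACC-62 mean 2.99 ± 0.17, SD, n = 2). Over all common bins the medians were 1.17, 1.21 and 1.31, over those in 3′ UTRs 1.36, 1.40 and 1.46, and over those in coding sequence −1.03, −1.90 and −1.51. Intronic bins had a median of 61.5, 71 and 80.5 IP reads against 68, 71 and 100 over all common bins. Their input medians were 9, 8 and 8 reads against 25, 32 and 28. In all 3 samples 245 of the 296 bins were above 0, or 82.8% beside 66.7% of all common bins, and 20 were below 0 in all 3, beside 19.8%. Without the bins of RBM15, HELLS and H2AZ2, a choice made after seeing the data, 109 of 160 were above 0, or 68.1%, close to the share of all common bins. Leaving out SK-Mel-103, 442 of the 506 intronic bins common to both UACC-62 samples were above 0 in both. The share over all bins common to these 2 samples was not computed, so this count has no background and cannot be set against the 66.7%. No input read was found in any of the 3 samples for 5 members, in MYO1D, COMMD3-BMI1, MIB2, PTPN6 and GLB1, beside 0.101% of all common bins.

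The members differed in kind, and after their values were seen they were sorted into 5 classes by position and sequence. In 184 bins (62.2%) the bin lay in a long run, a stretch of at least 500 bases of bins listed in all 3 samples with gaps of at most 100 bases. In 26 bins the 20 bases overlapped an annotated exon although the centre was intronic. In 31 bins the bin with 20 bases on each side matched GL000220.1, an unplaced scaffold of GRCh37 known to carry ribosomal DNA. Another 13 bins had a further close copy elsewhere in the genome, and the remaining 42 bins were single or in short runs with no such copy found. Position came before sequence in this sorting, so that 15 bins in long runs and 1 at an exon edge also matched the scaffold or another copy.

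**Figure D1:**
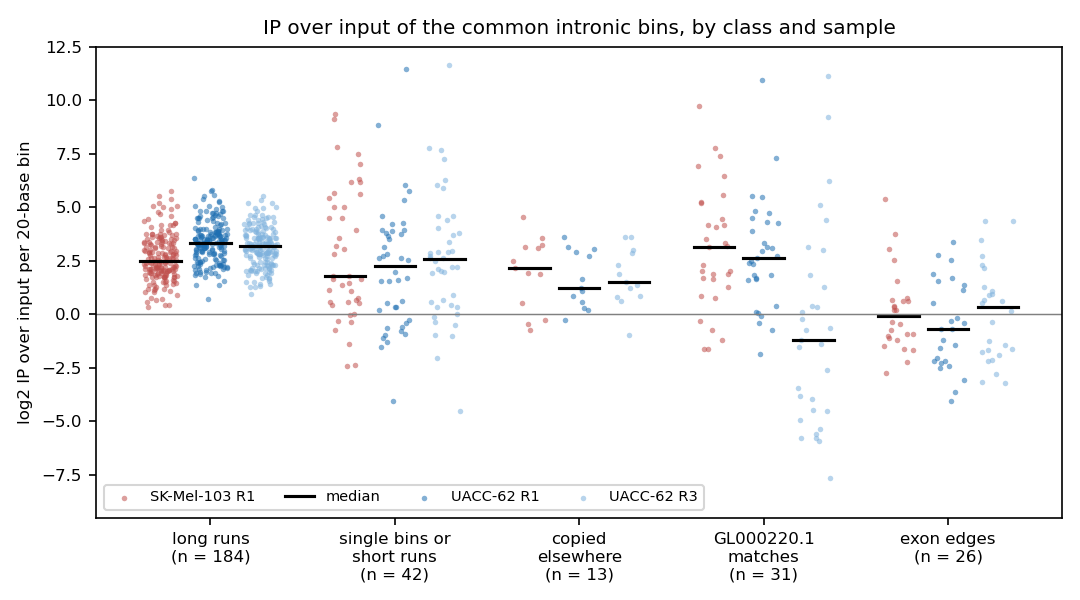
Each point is the log2 IP over input (vertical axis) of 1 common intronic bin in 1 of the 3 IP samples, by class (horizontal axis), with black lines at the class medians. All 184 bins in long runs lie above 0 in each sample, whereas the scaffold matches spread from −7.65 to 11.16.

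Long runs belonged to 12 genes in 17 stretches, and all 184 of their bins were above 0 in all 3 samples. The medians were 2.49, 3.36 and 3.18. The length of a run, its bins below 31 reads and its extent within the intron were not used by the rule. They are still not independent of it, since the runs include the members and every listed bin was called from IP reads with input as covariate. A median of 65.7% of the 20-base bins of the host intron was listed in all 3 samples for long-run members, against 0.445% for scaffold matches, copied bins and single bins, a contrast that the definition of the class favours. The median rests on RBM15 (83.1%), H2AZ2 (65.7%) and HELLS (57.7%). Of the other hosts of long runs, WDR4 was at 40.1%, GLB1, TTC3 and SARS1 at 20.0%, 17.8% and 16.1%, and DCBLD2, GNL3L, NECTIN3, ARIH2 and MTAP at 0.728% to 7.89%. None of the 184 bins was listed on the other strand in any sample. Of the 17 runs, 8 came within 100 bases of an annotated exon, and these 8 held 154 of the 184 bins.

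RBM15, an RNA-binding adaptor of the complex that methylates adenosine in RNA, had the most members. Its first run, chr1:110885321-110888160, spanned 2840 bases of intron 1 of the transcript with 2 introns, starting 8 bases after an annotated exon and ending at the next. The 118 bins of this run that were listed in all 3 samples held 4591, 8739 and 10038 IP reads against 600, 760 and 672 input reads. The summed log2 value was 2.56 for SK-Mel-103 and 3.28 ± 0.12 (SD, n = 2) in UACC-62. A second run of 640 bases filled intron 2, with values of 2.52 and 3.05 ± 0.02. Reads were highest in the middle of intron 1, where the highest bin of each sample held 180, 343 and 280 IP reads. In the bin printed above, 149, 222 and 246 IP reads stood against 5, 6 and 7 input reads.

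HELLS, a chromatin remodeller needed for DNA methylation, had 39 members in a run of 2460 bases in intron 10 of 11 of the host transcript (chr10:96365121-96367580). The run ended 86 bases before the next exon and began 1248 bases after the previous one. It held 4038, 3689 and 3244 IP reads against 572, 297 and 191 input reads. As a log2 value this was 2.44 for SK-Mel-103 and 3.43 ± 0.06 (SD, n = 2) in UACC-62. Here IP reads per bin were similar in the 3 samples (medians 33.5, 33.5 and 29 over 100 listed bins), while input reads were most numerous in SK-Mel-103. H2AZ2, which encodes a variant of histone H2A.Z, had 36 members in the last intron of a transcript with 3 introns. Its run nearest the last exon, chr7:44869761-44870600, reached 2.44 for SK-Mel-103 and 3.40 ± 0.24 in UACC-62. A neighbouring run of 860 bases was lower in every sample, at 1.60 and 2.36 ± 0.13. The IP reads of the first H2AZ2 run were 1776, 4196 and 4445, higher in both UACC-62 samples than in SK-Mel-103.

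SARS1, the cytosolic seryl-tRNA synthetase, had a run of 2260 bases that began 5 bases after an exon in intron 1 and ended 6559 bases before the next exon. Its IP reads were 1260, 2385 and 3883, or log2 values of 1.85 for SK-Mel-103 and 2.25 ± 0.23 (SD, n = 2) in UACC-62. Reads in the SARS1 run were densest next to that exon. WDR4, a subunit of the enzyme that makes 7-methylguanosine in tRNA, had a run of 2140 bases in its last intron, 11 of 11. It held 1552, 1911 and 1436 IP reads against 130, 79 and 44 input reads, giving 3.19 and 4.36 ± 0.09. GLB1, lysosomal beta-galactosidase, had similarly high values. Its run of 2080 bases in intron 1 held 2079, 1532 and 1326 IP reads against 118, 55 and 58 input reads, with 3.75 for SK-Mel-103 and 4.21 ± 0.58 in UACC-62. MTAP, an enzyme of methionine salvage, had a run of 560 bases directly after an exon, at 2.28 and 2.77 ± 0.21.

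The remaining long runs were lower or held few members. DCBLD2, a transmembrane receptor-like protein, had a run of 1620 bases with 1.70 in SK-Mel-103 and 3.32 ± 0.27 (SD, n = 2) in UACC-62. NECTIN3, a cell adhesion protein, had the longest run, 3720 bases, with 0.90 and 1.47 ± 0.62, and only 3 members in 2 runs. GNL3L, a nucleolar GTPase, had 2 members, and ARIH2 and TTC3, both E3 ubiquitin ligases, had 1 each. In all 17 runs the SK-Mel-103 value was lower than those of both UACC-62 samples, though narrowly so in the 2080-base run of GLB1 (3.75 against 3.79 in replicate 3). With 1 SK-Mel-103 sample this difference has no replicate check.

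**Figure D2:**
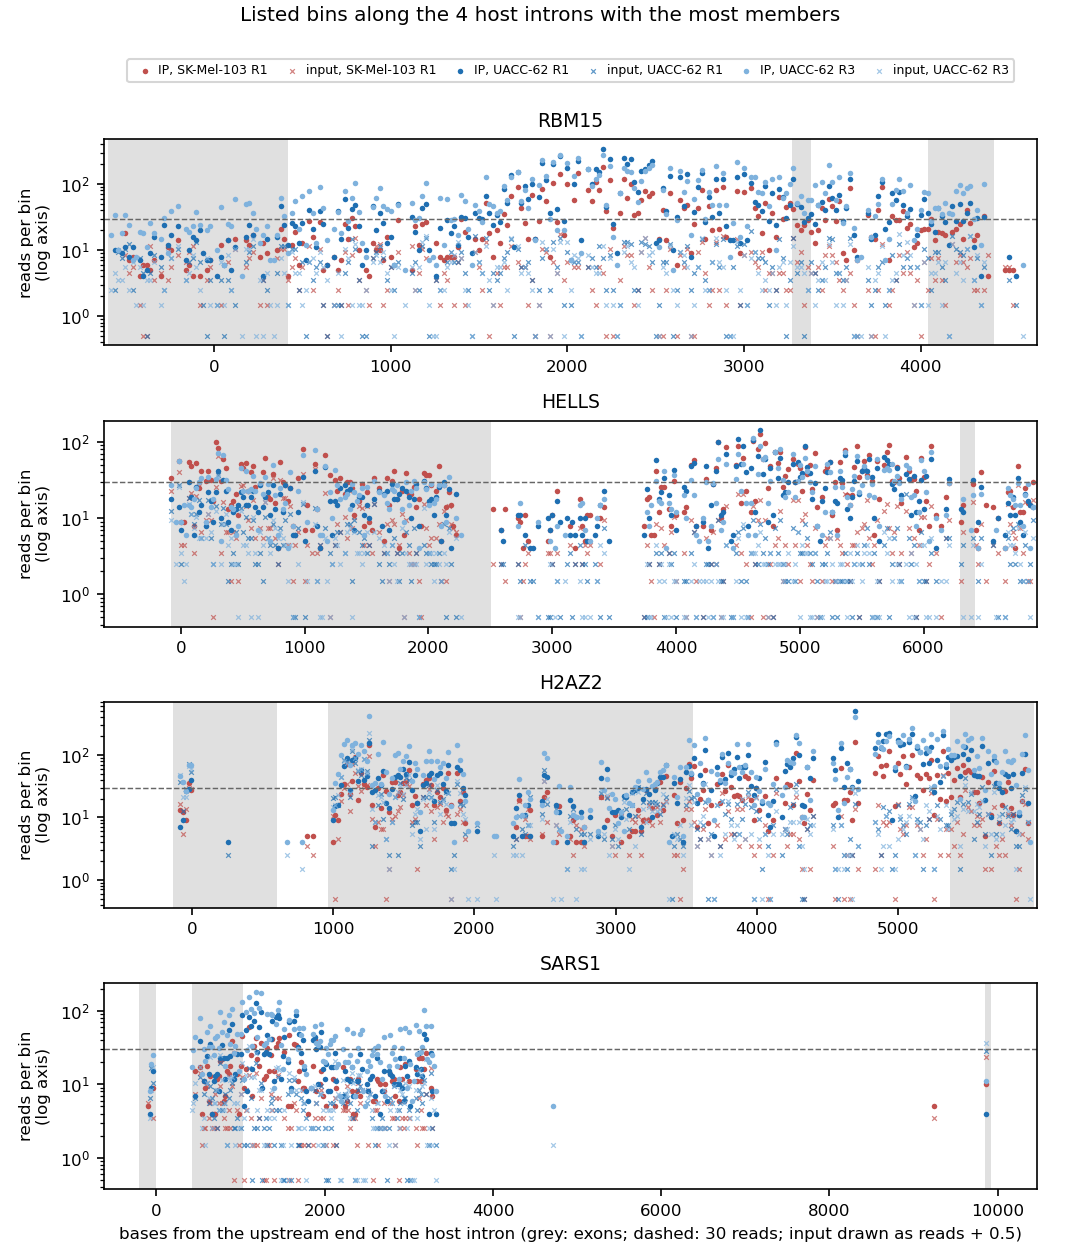
IP reads (points) and input reads (crosses) per listed bin on a log axis along the host introns of RBM15, HELLS, H2AZ2 and SARS1, in bases from the upstream end of the intron, with exons of any gene in grey. In RBM15 the runs reach from exon to exon, and in H2AZ2 they do so together, with a gap between them. In HELLS the run lies towards the downstream exon, and in SARS1 it starts at the upstream exon and ends 6559 bases before the next.

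The introns were set against the exons of the same genes by summing the bins listed in all 3 samples. Since the rule picked these introns by their IP reads and not the exons, the comparison is a description. Of the 13 hosts with 4 or more bins, 10 had listed exonic bins, and in 7 the introns had the higher log2 IP over input in all 3 samples. These were RBM15, HELLS, H2AZ2, SARS1, GLB1, WDR4 and MTAP. In RBM15 the intronic values were 2.55, 3.32 and 3.18 and the exonic values 0.83, 1.44 and 1.98. In HELLS they were 2.40, 3.43 and 3.35 against 0.59, 0.88 and 1.34. Both genes thus had exonic values above 0 as well. In SARS1 the exonic values lay below 0 (−0.17, −0.38 and −0.06) while the intronic ones were 1.85, 2.42 and 2.09. GLB1 had only 2 exonic bins listed, with 9 to 15 IP reads in all, so its exonic value is imprecise. LARP4, which binds poly(A) RNA, LPIN2, a phosphatidate phosphatase, and DCBLD2 did not keep 1 direction. DCBLD2 had 204 exonic bins over the read minimum, 158 of them in its 3′ UTR, against 4 intronic ones. Among all 93 hosts, 37 also had a common bin in a 3′ UTR, and 55 had no exonic bin with more than 30 IP reads in all 3 samples. The same shares over other genes were not computed, and the classes differed. A common 3′ UTR bin was present for 22 of 24 hosts of exon-edge bins and 7 of 12 of long runs. It was present for 7 of 38 hosts of single bins, 2 of 13 of scaffold matches and 0 of 9 of copied bins. A host can be in more than 1 class.

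**Figure D3:**
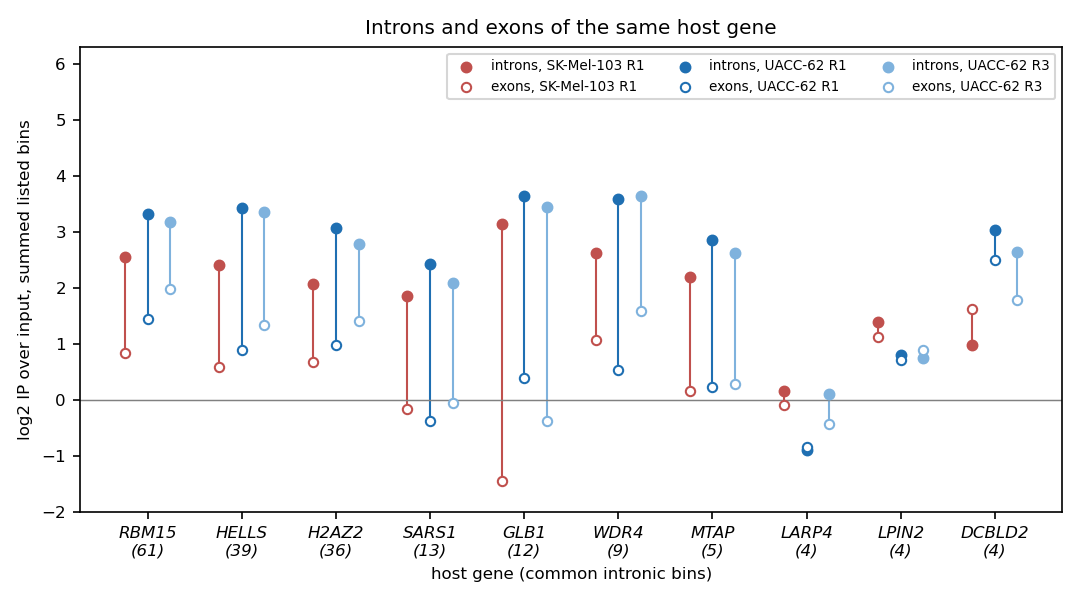
Log2 IP over input of the summed intronic bins (filled) and exonic bins (open) of the 10 hosts with at least 4 common intronic bins and listed exonic bins, per IP sample. In 7 hosts the filled point lies above the open one in each sample, whereas LARP4, LPIN2 and DCBLD2 cross.

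By position, the centres of the 296 bins lay 1 to 119341 bases from the nearest exon on that strand, with a median of 738. Within 40 bases, the length of a read, were 32 bins. Another 34 lay beyond that and up to 200 bases away, 113 beyond 200 and up to 1000, and 117 farther. The upstream exon was nearer for 132 bins and the downstream exon for 164. In the smallest intron that held the bin, 113 members were in the first intron and 92 in the last, and the median intron length was 6298 bases. For 4 of the 296 members the intron came from readthrough transcripts only. Long-run bins had a median distance of 783 bases and scaffold matches one of 3544. The bins farthest from any exon were in CTNNA3, which encodes an alpha-catenin (119341 bases), LINGO2, a neuronal membrane protein (58099), SDK2, an adhesion molecule (50933), and EFCAB11, an EF-hand protein (26268 and 26128). The CTNNA3 bin and the EFCAB11 bins matched the scaffold GL000220.1, and whether their reads came from these genes was not tested. LINGO2 had 119, 63 and 50 IP reads with log2 values of 3.21, 2.84 and 2.65. SDK2 had 39, 53 and 139 IP reads with 3.95, 4.60 and 4.43, but the same bin held 51, 59 and 140 IP reads on the other strand.

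**Figure D4:**
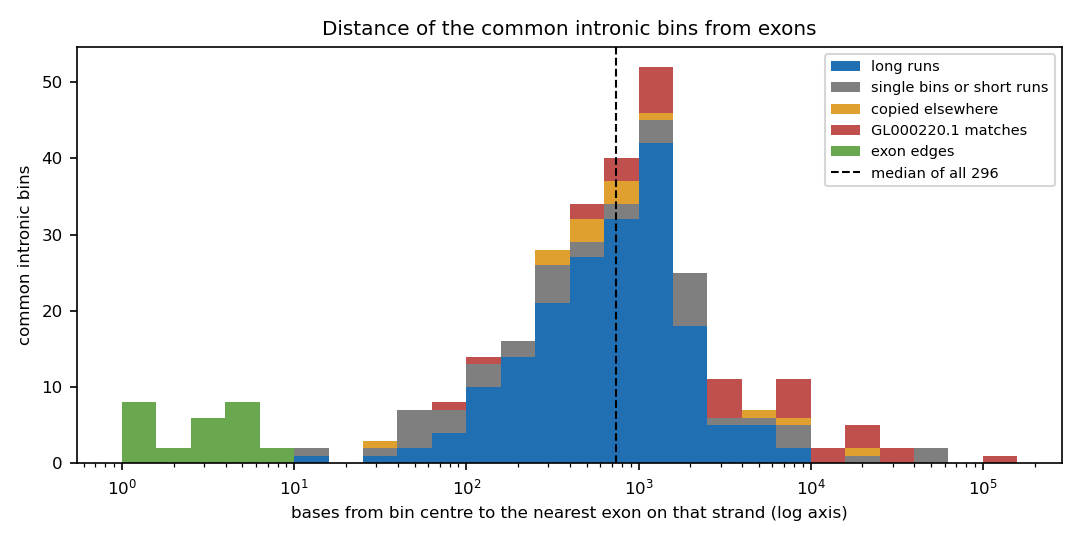
Number of common intronic bins (vertical axis) by the distance in bases from bin centre to the nearest exon on that strand (horizontal log axis), stacked by class, with the median of 738 bases dashed. Bins overlapping an exon stand apart at 1 to 9 bases, and the long-run bins centre near their median of 783 bases.

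The 26 bins at exon edges had centres 1 to 9 bases from an exon and median log2 IP over input of −0.09, −0.67 and 0.33. In 11 of them all 3 samples were below 0, and in 9 all 3 were above. The 11 lay in ACTB (beta-actin), EEF2 (elongation factor 2), HSP90AB1 (a heat shock protein), LDHA (lactate dehydrogenase), NPM1 (nucleophosmin), SET (a histone chaperone), VIM (vimentin), NHSL2 and the ribosomal protein genes RPL7, RPS29 and RPS4X. ACTB had 84, 73 and 59 IP reads against 124, 177 and 99 input reads. RPS29 had 485, 191 and 363 against 510, 768 and 717. These 2 bins were thus covered in both IP and input. The 9 above 0 were 2 of H2AZ2 at the ends of its runs, 2 of UHMK1, and 1 each of SERPINE2, SLC25A1, UBE2C, UBE2E3 and ZNF772. SERPINE2, a secreted protease inhibitor, had 43 IP reads in SK-Mel-103 and 2152 and 1121 in UACC-62, with input of 21, 656 and 484. Its log2 IP over input was therefore close in the lines (0.63 against 1.55 and 0.51) although its reads were not. With a read length of 40, reads that start in the exon can reach such bins, and their part in the values was not tested.

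The 31 scaffold matches lay in 13 genes and behaved differently in the 3 samples. The matches were 33 to 64 bases long with at least 90% identity. Their median log2 value was 3.13, 2.62 and −1.20, so that UACC-62 replicate 3 stood apart. On the forward strand of the scaffold were 18 bins of 9 genes, among them HFM1, PDE3A, PMF1, PHKB, PID1 and NOTCH2. These 18 bins held 3337, 2774 and 1662 IP reads, and their input was 501, 770 and 21634 reads. Input was thus far higher in UACC-62 replicate 3 than in the other inputs, with 15, 15 and 4 of the 18 bins above 0. In HFM1, a helicase known from meiosis, the 5 bins ranged from −3.81 to −5.80 in that sample and from 0.85 to 3.90 in the others. PID1 had the lowest value of all members, −7.65, from 37 IP and 4716 input reads.

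On the reverse strand were 13 bins of MYO1D, UNC45B, DLG2 and SEC14L1, with 6758, 24919 and 7196 IP reads and 2106, 2688 and 3353 input reads. MYO1D, a class I myosin, held the bin with the highest lowest value of all members. It had 1115, 2197 and 3712 IP reads and no input read, and with a floor of 3 input reads per library its IP over input was at least 287-fold, 657-fold and 763-fold. On the other strand the same bin held 5923, 3122 and 8907 IP reads. The neighbouring MYO1D bins went other ways. The bin at chr17:31149621-31149640 had 625, 20720 and 296 IP reads against 1466, 2104 and 1124 input reads, so that UACC-62 replicate 1 was at 3.14 and the other samples at −1.60 and −2.62. UNC45B, a myosin chaperone, had a bin of 2367, 391 and 973 IP reads against 14, 17 and 0 input reads. The DLG2 bin printed above had 222, 104 and 341 IP reads against 0, 1 and 5, whereas the other DLG2 bin had 1356 input reads in UACC-62 replicate 3 and 0 to 2 in the others.

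**Figure D5:**
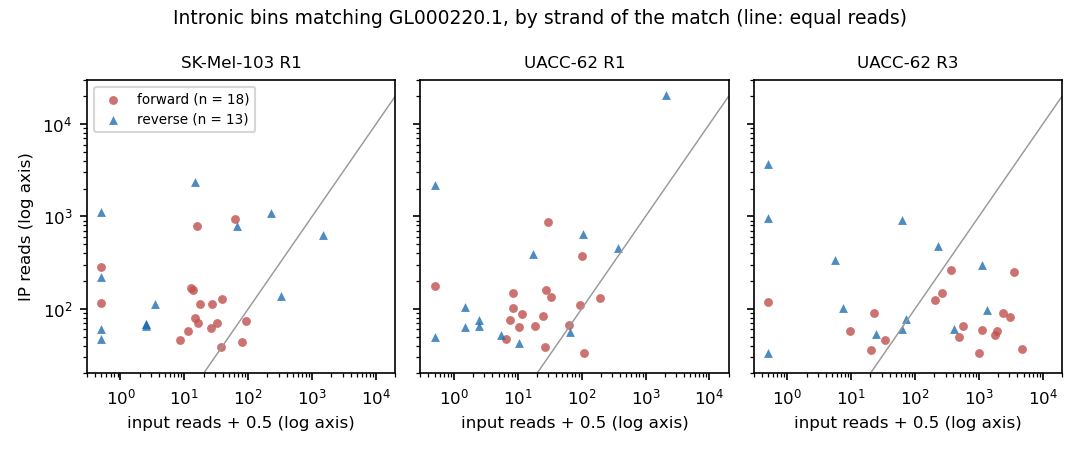
IP reads (vertical log axis) against input reads plus 0.5 (horizontal log axis) of the 31 intronic bins that match GL000220.1, per IP sample, as circles for forward and triangles for reverse matches, with a line at equal reads. In UACC-62 replicate 3 most forward matches lie right of the line.

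Most scaffold matches were listed on both strands, 28 of the 31. Of all 296 members, 53 were listed on the other strand in at least 1 sample, and in 16 the other strand had more IP reads in all 3 samples. Only 2 members, in ARMH1 and TTC39C, lay across an exon of a gene on the other strand. CLASP1, which encodes a microtubule-binding protein, had 1191, 273 and 194 IP reads on its own strand and 6396, 2126 and 2187 on the other. Whether these reads came from these loci was not tested. The strand itself was read as the reverse of the listed one, since 28575 common bins then lay in exons of protein-coding genes and 571 on the listed strand. On the listed strand 657 bins would have counted as intronic, of which 19 are members here.

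Of the 13 bins with other copies, 4 lay in intron 4 of LPIN2 on chromosome 18, and 3 of these matched the spliced RNA of CHORDC1, a cochaperone gene on another chromosome. They had 146, 154 and 123 IP reads in SK-Mel-103 and 41 to 114 across the 4 bins in UACC-62, with log2 values of 0.29 to 2.18. The exon-edge bin of NHSL2 matched RPS26 in the same way and was below 0 in all samples (−2.74, −4.05 and −3.17). Reads of such bins may count for either locus, so that the host is uncertain. A pair of bins in EYS, far apart in that gene, had nearly equal counts (216, 97 and 74 against 217, 98 and 75 IP reads). Bins in ALDOA and ZMIZ1, on different chromosomes, also differed by 1 IP read in 1 sample, and had the same input reads. The ALDOA and ZMIZ1 bins and 1 of the EYS pair had no copy found and were sorted with the single bins. Whether such bins share reads was not tested.

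The 42 remaining bins lay in 38 genes, with medians of 1.78, 2.26 and 2.57, and 30 were above 0 in all 3 samples. On the other strand 18 of the 42 were also listed in at least 1 sample, and 3 had more IP reads there in all 3 samples. COMMD3-BMI1, a readthrough of COMMD3 into the Polycomb gene BMI1, held the strongest of the 42 bins. This bin, 256 bases from an exon, had 856, 3146 and 5265 IP reads and no input read, which puts IP over input at least 220-fold, 940-fold and 1082-fold higher at the floor of 3 input reads. No bin near it was in a long run, and this sequence matched 1 place in the genome. On the other strand the same bin held 11, 1771 and 130 IP reads. MIB2, a ubiquitin ligase of Notch signalling, and PTPN6, the phosphatase SHP-1, likewise had no input. MIB2 had 93, 60 and 98 IP reads, at least 23.9-fold, 17.9-fold and 20.1-fold, with 148, 20 and 20 on the other strand, and PTPN6 56, 72 and 106, at least 14.4-fold, 21.5-fold and 21.8-fold. Both bins were within 50 bases of an exon, at 47 and 43. HES6, a transcription factor, had 337, 520 and 383 IP reads but input of 180, 0 and 146, so only UACC-62 replicate 1 stood high, at 8.87 against 0.53 and 0.69. LARP4, with 4 bins, had no bin above 0 in all 3 samples. ERCC1, a DNA repair gene, was at −2.36, −4.04 and −4.49, the lowest of these bins in both UACC-62 samples, while WDFY4 was lowest in SK-Mel-103 (−2.43).

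Few members lay near an intronic small RNA gene. The smallest host intron held a small RNA gene on that strand for 5 bins, and 3 lay within 200 bases of it, namely CHD3 beside SCARNA21 (13 bases), KPNA4 beside SCARNA7 (4 bases) and TRRAP beside MIR3609 (99 bases). CHD3 was near 0 in all samples (−0.33, −0.58 and 0.34). TRRAP was above 0 in all 3 (1.64, 0.23 and 2.72), and KPNA4 was at 1.56, −0.30 and 1.26.

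Among genes whose splicing the study assayed after CELF1 loss, 1 of 8 was a host. For these genes the paper reported no obvious splicing change in melanoma lines once CELF1 was depleted. FXR1, an RNA-binding relative of the fragile X protein, had 1 bin 27 bases from an exon, with 48, 64 and 76 IP reads and log2 values of 0.66, 1.69 and 1.98. None of 9 CELF and MBNL family genes, 20 genes of SR proteins and their kinases or 18 hnRNP genes was a host. Of all 1784 genes with an intronic bin listed in all 3 samples 5.21% were hosts. Such a bin was present for 4, 3, 6 and 8 genes of these lists in turn, too few for the counts of 1 and 0 to be read.

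The search for GU-rich elements used the study's pair of consensus elements, each 11 bases long, one a run of GU repeats and the other of GUUU repeats. A bin counted when it, with 50 bases on each side, held a stretch within 2 mismatches of either on the transcript strand. The patterns overlap, and a stretch matching both counted once. Of the 296 intronic bins 43 held an element, or 14.5% (Wilson 95% interval 10.97 to 19.00). The shares were 14.3% over all common bins, 15.8% in 3′ UTRs and 4.68% in coding sequence. Neighbouring bins share windows, so these intervals cover counting error only. Long runs held 41 of the 43 bins, with 16 in RBM15, 9 in HELLS, 5 in WDR4, 4 in GLB1, 3 in H2AZ2, 2 in DCBLD2 and 1 each in SARS1 and MTAP. None lay in the classes of scaffold matches or copied bins, but 3 of the long-run bins with an element, in GLB1, H2AZ2 and RBM15, had further copies in the genome, and 1 more in RBM15 matched the scaffold. Bins in long runs were on average 38.7% T, against 20.3% in scaffold matches, 21.9% in copied bins and 24.0% in the single bins. Exon-edge bins were closer at 35.6%, as were common bins in 3′ UTRs (33.9%) and all common bins (32.4%), so a high T share was not particular to long runs.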

How the data were processed

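CELF1 RIP-Seq of 3 IP samples was analysed, each with its own input, from a series of 6 samples. The authors aligned 40-nt reads to GRCh37 with TopHat and called bins of 20 bases with Piranha, input as covariate, at a threshold of 0.05. The deposited read count is whole IP reads per listed bin, not normalized. The deposited p-value is Piranha's. The ratio deposited in the covariate column was turned back into whole input reads (largest deviation 0.0188 of a step). Bins below the threshold are not listed, so a missing bin is not a count of 0.

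Members and gene lists were chosen with earlier results of these data known. Common bins held more than 30 IP reads in all 3 samples. Named genes were the 12 hosts with most bins, those of the 10 bins with the highest lowest log2 IP over input, of the 5 with most IP reads in their lowest sample and of the 5 farthest from exons, and list members that were hosts. Other genes were named after their values were seen. The 5 classes used blastn 2.17.0 (scaffold: at least 33 bases at 90% identity and at most 10 genome copies, or 38 bases with at most 2 mismatches), pandas 2.3.3 and pysam 0.24.0. Steps were tested on simulated data, where all 50000 simulated bins gave back their input reads. Alternatives covered the read minimum, p-value, exon rule, strand, pseudocount, totals, left-out samples, and element window and mismatches. PCR reads are not independent molecules, so intervals and floors cover counting error only. No columns of other samples were present.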

Additional observations from a re-analysis of the deposited data

Results flagged for a closer look

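In 5 bins SK-Mel-103 lay on one side of 0 and both UACC-62 samples on the other, and this difference between the lines was not tested, since SK-Mel-103 has 1 sample. The value given is log2 IP over input in SK-Mel-103 minus the UACC-62 mean. It was 0.58 for LARP4, 0.95 for LRPPRC at an exon edge and 2.38 for PHKB, a scaffold match, all higher in SK-Mel-103. It was −1.29 and −0.85 for 2 adjoining bins of METTL21A, whose sequence has over 1000 copies. Among all members, 26 had the UACC-62 replicates themselves on opposite sides of 0.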

How the results depend on the processing

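Of 70 recomputed values, 44 stayed close to the reported ones in size, and no median turned its sign. Close meant within a factor of 1.5 for counts and distances and within the Wilson interval for the GU-rich share. For medians of log2 IP over input it meant within 0.17, the SD of the 2 UACC-62 medians. This SD was also used for SK-Mel-103, which has no replicate spread of its own. Counts of similar size can hold different members. Without a read minimum there were 9466 bins in 1784 genes (medians 1.11, 1.84 and 1.62, exon distance 1633), and above 100 reads 36 bins in 20 genes (3.41, 3.69 and 3.61, distance 1240). The listed strand gave 657 bins. Its 93 host genes counted among the 44 close values, although only 14 of them are hosts in the main setting. Leaving out 1 sample gave 372 to 506 bins, with 304 to 442 above 0 in the samples kept. The matching share over all bins was not computed. Not dividing by totals gave medians of 2.73 and 3.57 in SK-Mel-103 and the third UACC-62 replicate. Without RBM15, HELLS and H2AZ2, chosen after seeing the data, 160 bins remained, 109 above 0 in all 3 samples, with medians of 2.03, 2.55 and 2.03. Without all 60 bins of any class that matched the scaffold or another copy, also chosen after seeing the data, 236 bins remained and 208 were above 0. The GU-rich share was 6.76% with 1 mismatch, 2.36% with none, 2.70% in the bin alone and 26.0% with 100 bases on each side. The cause of these shifts was not tested beyond the fewer or more bins counted. No paired analysis was possible because no test was made and SK-Mel-103 has 1 IP sample. In each sample 16 to 23 members had no input read, so single-bin ratios are imprecise there.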
